A study of Mus musculus with 8 samples.

Results

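The circadian clock genes described here are 10 transcripts of the molecular clock, chosen by symbol and matched to the Ensembl gene identifiers of the deposited count tables. Each of the 10 symbols matched 1 of 56980 identifiers. Of them, 3 are morning-phase genes (Arntl, Clock and Npas2) and 7 are evening-phase genes (Per1, Per2, Per3, Nr1d1, Nr1d2, Dbp and Ciart). RNA was sequenced from jejunal mucosal scrapings of male mice in 8 samples, 4 from FFA2 fl/fl mice without Cre (floxed controls) and 4 from Adipoq-F2-KO mice, which carried the same floxed alleles of the short-chain fatty acid receptor FFA2 (gene Ffar2) together with Cre recombinase driven by the adiponectin promoter. That promoter is active in adipocytes, so by design the deletion lay outside the sequenced epithelium. The littermates of both genotypes had lived together from birth on a light and dark cycle. All had started at 12 weeks of age on a Western diet with 10% fructooligosaccharides, a fermentable fiber, and were taken after 2 weeks in thermoneutral housing. The clock time at which tissue was collected was not given in the sources used here.

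The mammalian clock is a feedback loop of transcription. BMAL1 (the product of Arntl) pairs with CLOCK or its paralog NPAS2 and activates genes through E-box elements, among them the Per genes, whose proteins return to block their own activators. The nuclear receptors REV-ERB alpha and beta (Nr1d1 and Nr1d2) close a further loop by repressing Arntl through ROR elements, and PAR bZIP factors such as DBP carry the rhythm to output genes through D-boxes. In the intestine the loop runs in epithelial cells, is reset by feeding time and is known to time nutrient transport and lipid handling.

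These elements were visible in the promoter windows of 4 of the 10 genes, which are shown as a description of the sequence. Windows of 250 bases before to 50 bases after the annotated start were taken from RefSeq (GRCm38.p6). There 9 of the 10 genes, all but Per2, had 13 windows in all. The elements were found in 4 of these 13 windows. Arntl and Per1 had 2 windows each, with matches in 1 window of each gene. Both strands were searched for the E-box CACGTG, for the D-box as TTATGTAA or TTATGCAA, and for the ROR element TAGGTCA. The E-box reads the same on both strands, and no match overlapped another. Capitals mark the matches in the stretches below, each written along the strand of its gene. The Arntl stretch lies at chr7:113207531-113207557 (plus strand) with a ROR element starting 31 bases into the transcribed sequence. The Per1 stretch lies at chr11:69098773-69098942 (plus strand), with an E-box at -166 and a D-box at -24 from the start. The Per3 stretch lies at chr4:151044806-151044880 (minus strand), with D-boxes at -205 and -158. The Ciart stretch lies at chr3:95882257-95882354 (minus strand), with 3 E-boxes at -116, -58 and -44.
Arntl: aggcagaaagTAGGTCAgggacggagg
Per1: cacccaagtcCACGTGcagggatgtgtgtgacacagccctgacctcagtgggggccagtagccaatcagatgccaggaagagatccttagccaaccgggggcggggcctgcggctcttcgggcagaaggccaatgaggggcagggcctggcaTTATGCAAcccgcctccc
Per3: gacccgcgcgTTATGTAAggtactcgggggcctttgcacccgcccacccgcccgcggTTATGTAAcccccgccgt
Ciart: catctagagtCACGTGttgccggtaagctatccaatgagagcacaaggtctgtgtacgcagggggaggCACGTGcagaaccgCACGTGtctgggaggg
Among all 32851 promoter windows of that length, 7.15% held the E-box, 1.66% a D-box and 2.61% the ROR element. The windows of the other 5 genes (Clock, Npas2, Nr1d1, Nr1d2 and Dbp) held none of these letters. A match is a description of the sequence, and no binding was measured.

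Total counts per library ranged from 6007654 to 21712776. The 3 libraries under 10000000 counts (floxed control 3, Adipoq-F2-KO 3 and Adipoq-F2-KO 4) are called shallow here and the other 5, of which 3 were floxed controls, deep. Villus enterocyte markers were abundant in every library, with summed normalized counts of 487310 to 546870 in controls and 487290 to 545110 in Adipoq-F2-KO mice. The same 3 shallow libraries carried adipocyte marker RNA, with a sum over 6 markers of 579 in floxed control 3, 266 in Adipoq-F2-KO 3 and 205 in Adipoq-F2-KO 4, against 10.1 to 19.0 in the deep libraries. Floxed control 3 also had the highest smooth muscle sum (30286, against 3775 to 8159 in the other controls and 4139 to 12421 in Adipoq-F2-KO mice). Ffar2 had 2 to 18 raw counts per library, which checks no label because the deletion was made in adipocytes. Values below are normalized counts, in which each library's counts were divided by its DESeq2 size factor, listed for libraries 1 to 4 of each genotype.

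All 10 clock genes were expressed in every library, and all passed the filter of at least 10 counts in at least 4 libraries. Levels of different genes were compared only after division by exonic length, as normalized counts per kilobase. On that scale Nr1d1 was the most abundant (850 ± 123, SD, n = 8), followed by Nr1d2 (284 ± 49.9), Per2 (223 ± 82.3), Dbp (216 ± 39.6), Clock (152 ± 7.72), Per1 (126 ± 48.9), Npas2 (116 ± 16.7), Per3 (81.0 ± 16.1), Arntl (27.5 ± 10.2) and Ciart (23.6 ± 6.44). Of the neighbors in this order, the ranges over the 8 libraries did not overlap between Nr1d1 and Nr1d2, between Dbp and Clock, and between Per3 and Arntl, and the other neighbors overlapped. The wide range of Per2 (151 to 362 per kilobase) reached down to those of Clock (140 to 164) and Per1 (56.9 to 193), while Clock lay above Npas2 and Per3 throughout. Clock varied least among libraries, with a coefficient of variation of 5.09%, and Per1 (38.8%), Arntl (37.0%) and Per2 (36.9%) varied most.

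**Figure D1:**
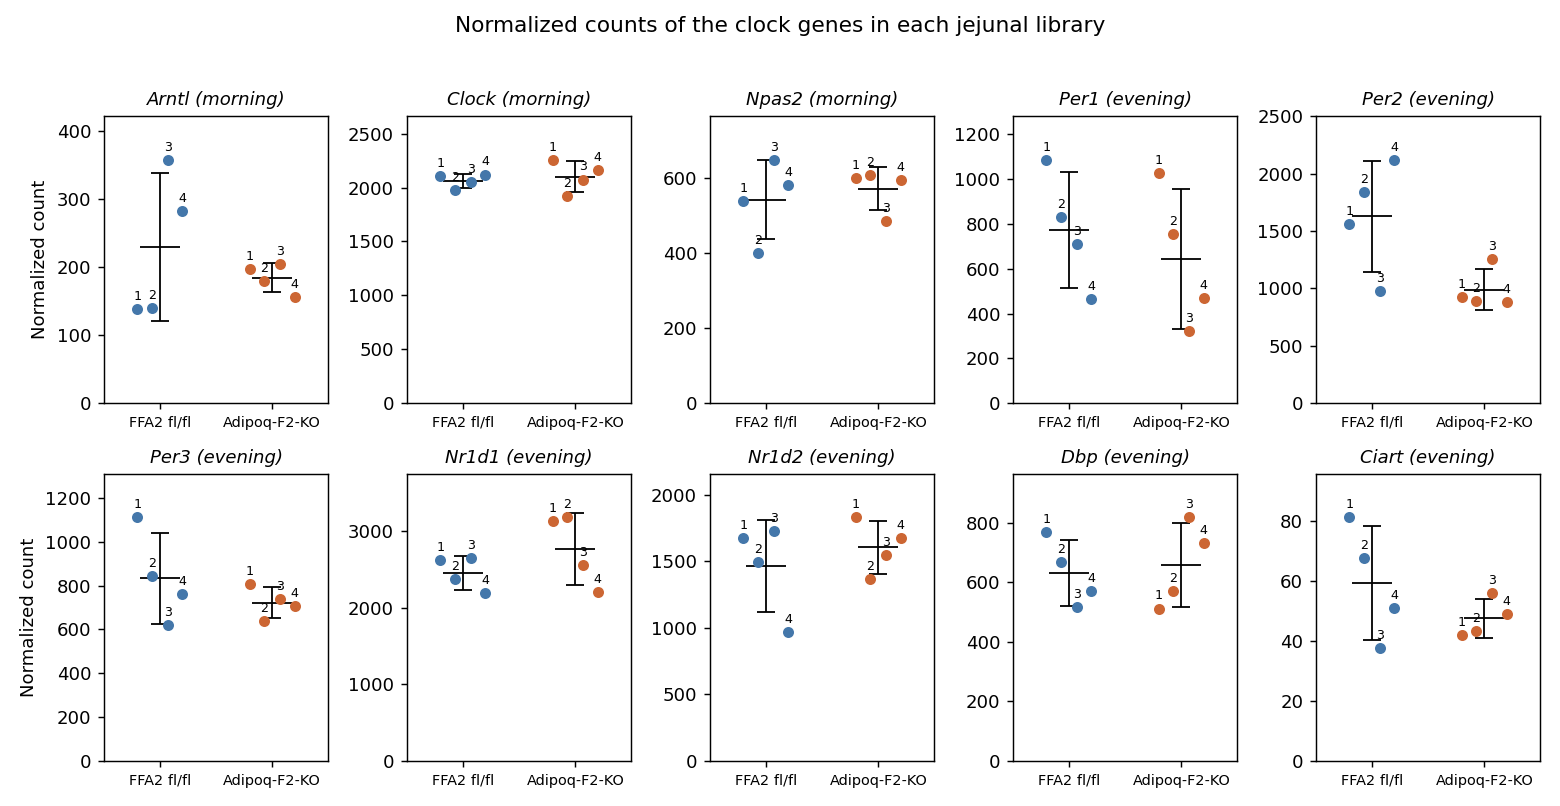
Normalized counts (vertical axis, from 0) of the 10 clock genes in 4 FFA2 fl/fl and 4 Adipoq-F2-KO libraries, with one point per library, numbered by replicate, and horizontal bars with whiskers for the mean ± SD. In Per2, Adipoq-F2-KO libraries 1, 2 and 4 sit at 882 to 923, under every floxed control, while the genotypes overlap in all 10 genes.

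The first question was whether jejunal clock transcripts differed between genotypes. Per2 had the largest difference, with a DESeq2 ratio of Adipoq-F2-KO to control of 0.605, and for the other 9 genes the DESeq2 interval of the log2 fold change included 0. In the DESeq2 fit across 15986 genes, 0 of the 10 passed an adjusted p of 0.05, where 0.0375% of all tested genes passed (6 genes, 0.0313% higher and 0.00626% lower). At an unadjusted p below 0.05 there was 1 of 10, against 3.03% of all tested genes. edgeR's quasi-likelihood test and limma-voom each also gave 0 of 10 after adjustment (0.0125% and 0.00626% of all tested genes) and 1 of 10 before it (3.48% and 4.3%). The 2 genotypes overlapped in every one of the 10 genes, while 2.12% of all tested genes had no overlap (1.1% higher and 1.02% lower).

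The activators come first. Arntl (ENSMUSG00000055116, chromosome 7), which encodes the obligate activator BMAL1, had normalized counts of 138, 140, 358 and 282 in the floxed controls and 197, 179, 204 and 156 in Adipoq-F2-KO mice. The controls formed a low pair and a high pair, and all 4 Adipoq-F2-KO values lay between the pairs. Its log2 fold change (Adipoq-F2-KO over control) was -0.30 (SE 0.304, 95% interval -0.90 to 0.30, DESeq2 adjusted p = 0.9998), and -0.01 without floxed control 3 against -0.48 without floxed control 1 or 2. Clock (ENSMUSG00000029238, chromosome 5), the main partner of BMAL1, had 2104, 1973, 2051 and 2121 in controls, against 2258, 1917, 2074 and 2158 in Adipoq-F2-KO mice. The libraries lay close together in both genotypes, and the interval of the log2 fold change was the narrowest of the 10 genes (0.03, -0.14 to 0.19, DESeq2 adjusted p = 0.9998). Npas2 (ENSMUSG00000026077, chromosome 1), the paralog that can replace CLOCK, had 537, 401, 648 and 581 in controls, against 600, 607, 485 and 594 in Adipoq-F2-KO mice. Here 3 of the Adipoq-F2-KO libraries were nearly equal and library 3 was lower, inside the control range. The log2 fold change of Npas2 was 0.09 (SE 0.165, -0.23 to 0.41, DESeq2 adjusted p = 0.9998).

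The Period genes encode the repressors that feed back on BMAL1 and its partners. Per2 (ENSMUSG00000055866, chromosome 1) had 1562, 1842, 981 and 2121 normalized counts in controls, against 923, 890, 1253 and 882 in Adipoq-F2-KO mice. In 3 of 4 Adipoq-F2-KO libraries Per2 lay under every control, and in 4 of 4 it lay under the control mean of 1627 ± 487 (SD, n = 4). The overlap came from library 3 of each genotype, the lowest of the controls and the highest of the Adipoq-F2-KO libraries. The log2 fold change was -0.72 (SE 0.223, -1.16 to -0.29), a ratio of 0.605 (0.447 to 0.819). It ranked 30 of 15986 by p (DESeq2 unadjusted p = 0.00116, adjusted p = 0.602), and did not pass after adjustment. An exact two-sided permutation test over the 8 libraries gave p = 0.0571, where 4 against 4 can reach 0.0286. In bulk tissue, fewer cells of a type that expresses Per2 and less Per2 RNA per cell cannot be told apart.

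Whether Per2 passed depended on the libraries and on the tool. Without floxed control 3 the remaining controls (1562 to 2121) all lay above all Adipoq-F2-KO libraries (882 to 1253), as in 4.97% of tested genes, and the log2 fold change was -0.90 (-1.22 to -0.59, DESeq2 adjusted p = 4.97e-05, where 0.644% of tested genes passed). In the 5 deep libraries it was -1.03 (-1.35 to -0.70, DESeq2 adjusted p = 1.13e-06, where 0.488% passed). edgeR's quasi-likelihood test on the same libraries gave nearly the same size but no call, with adjusted p = 0.162 without floxed control 3 (where 0.0125% of tested genes passed) and 0.367 in the deep libraries (where 0% passed). Among the 3 shallow libraries the control value (981) lay between both Adipoq-F2-KO values (1253 and 882), so the difference seen in the deep libraries was not seen there, with too few libraries to test it. Smooth muscle RNA ran against Per2 in part, with Pearson's r of -0.52 between Per2 and the smooth muscle score over the 8 libraries and -0.29 in the deep ones. With that score as a covariate over the 8 libraries the Per2 log2 fold change was -0.65 (DESeq2 adjusted p = 0.27). The part of depth and adipocyte RNA in the Per2 values of library 3 was not tested.

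**Figure D2:**
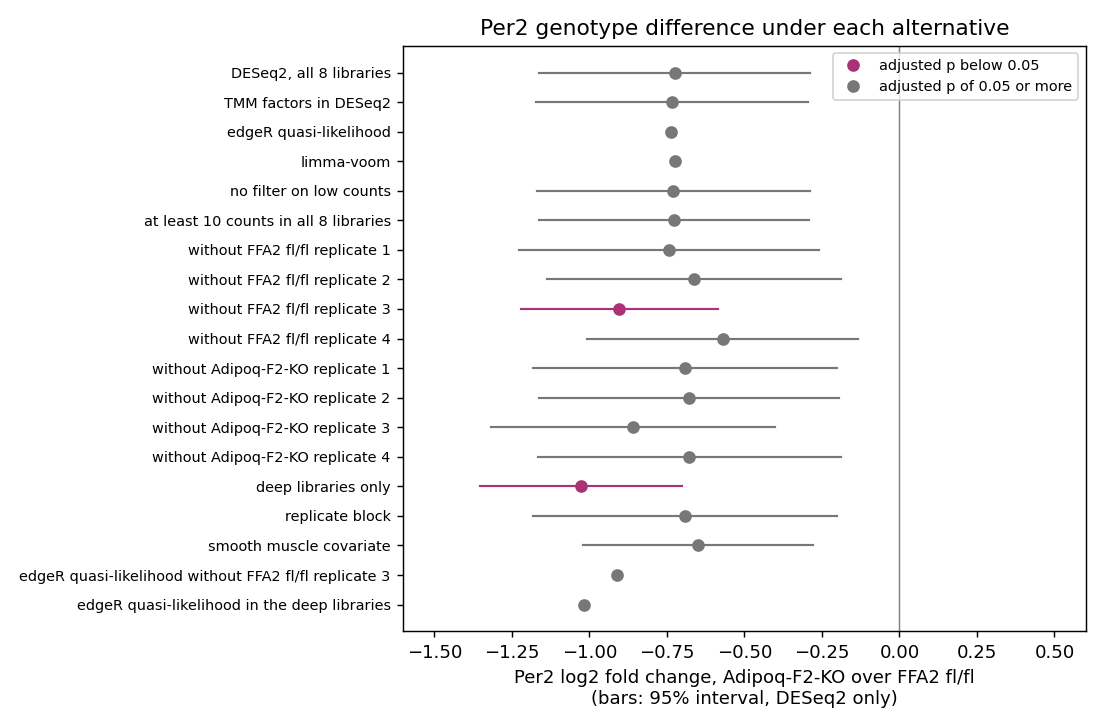
Per2 log2 fold change (horizontal axis, Adipoq-F2-KO over FFA2 fl/fl) in the DESeq2 fit of all 8 libraries and under 18 alternatives, with 95% intervals where DESeq2 gave a standard error. All 19 points lie below 0, from -0.57 to -1.03, and an adjusted p below 0.05 was reached in 2 of the 18 alternatives (without FFA2 fl/fl replicate 3, and the deep libraries only).

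Per1 (ENSMUSG00000020893, chromosome 11), which responds to acute signals as well as to the clock, correlated little with Per2 over the 8 libraries (r = -0.06). The controls held 1087, 833, 711 and 466 normalized counts and the Adipoq-F2-KO mice 1029, 756, 320 and 468. Both genotypes spanned a wide range, with library 1 of each genotype at the top and Adipoq-F2-KO 3 at the bottom, and the log2 fold change of -0.26 had an interval from -0.92 to 0.40 (DESeq2 adjusted p = 0.9998). It was -0.05 without floxed control 1, -0.04 without Adipoq-F2-KO 3 and -0.58 without Adipoq-F2-KO 1. In the deep libraries it turned positive, and over the 18 alternatives it ran from -0.58 to 0.17. Per3 (ENSMUSG00000028957, chromosome 4), the paralog least needed for rhythm, had 1112, 843, 619 and 762 in controls, against 806, 640, 739 and 707 in Adipoq-F2-KO mice. All 4 Adipoq-F2-KO values of Per3 lay within the control range and under the control mean (log2 fold change -0.21, SE 0.179, -0.56 to 0.14, DESeq2 adjusted p = 0.9998), with -0.04 without floxed control 1 and -0.33 without floxed control 3. Ciart (ENSMUSG00000038550, chromosome 3), whose product represses the BMAL1 and CLOCK complex, was the scarcest at 523 raw counts in all. It had 81.2, 67.5, 37.6 and 51.1 in controls, against 41.8, 43.4, 56.1 and 48.9 in Adipoq-F2-KO mice. As in Per2, control 3 was the lowest control and Adipoq-F2-KO 3 the highest of its genotype, and the log2 fold change was -0.38 (SE 0.287, -0.95 to 0.18, DESeq2 adjusted p = 0.9998). It was -0.20 without floxed control 1 and -0.65 in the deep libraries.

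The 2 REV-ERB genes lay on the other side of zero. Nr1d1 (ENSMUSG00000020889, chromosome 11) had 2623, 2372, 2652 and 2189 in controls, against 3135, 3184, 2557 and 2211 in Adipoq-F2-KO mice. Adipoq-F2-KO 1 and 2 exceeded every control, and Adipoq-F2-KO 3 and 4 lay among them (log2 fold change 0.18, SE 0.141, -0.10 to 0.45, DESeq2 adjusted p = 0.9998). With 1 library left out the value ranged from 0.10 (without Adipoq-F2-KO 2) to 0.27 (without Adipoq-F2-KO 4). In the deep libraries alone Nr1d1 was higher in Adipoq-F2-KO mice without overlap, as were 11.5% of all tested genes, and the log2 fold change was 0.40 (DESeq2 adjusted p = 0.135, edgeR adjusted p = 0.726). Nr1d2 (ENSMUSG00000021775, chromosome 14) had 1673, 1494, 1723 and 970 in controls, against 1829, 1363, 1544 and 1675 in Adipoq-F2-KO mice. Control 4 was well under the other 7 libraries, and without it the log2 fold change went from 0.13 (SE 0.186) to -0.02. Nr1d1 shares 263 exonic bases with Thra on the opposite strand. The strand setting of the counting was not given, so Nr1d1 reads are uncertain to that extent, while Thra itself had a log2 fold change of 0.03 (DESeq2 adjusted p = 0.9998).

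Dbp (ENSMUSG00000059824, chromosome 7), the output factor usually taken as a sensitive reporter of clock phase, showed no stable direction. It had 769, 670, 517 and 573 in controls, against 512, 571, 819 and 731 in Adipoq-F2-KO mice. In controls libraries 1 and 2 were high, in Adipoq-F2-KO mice libraries 3 and 4 were, and both genotypes covered nearly the same range. The log2 fold change was 0.05 (SE 0.187, -0.32 to 0.41, DESeq2 adjusted p = 0.9998) and was -0.31 in the deep libraries. Dbp shares 539 exonic bases with Sphk2 on the opposite strand, and Sphk2 had a log2 fold change of -0.03.

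**Figure D3:**
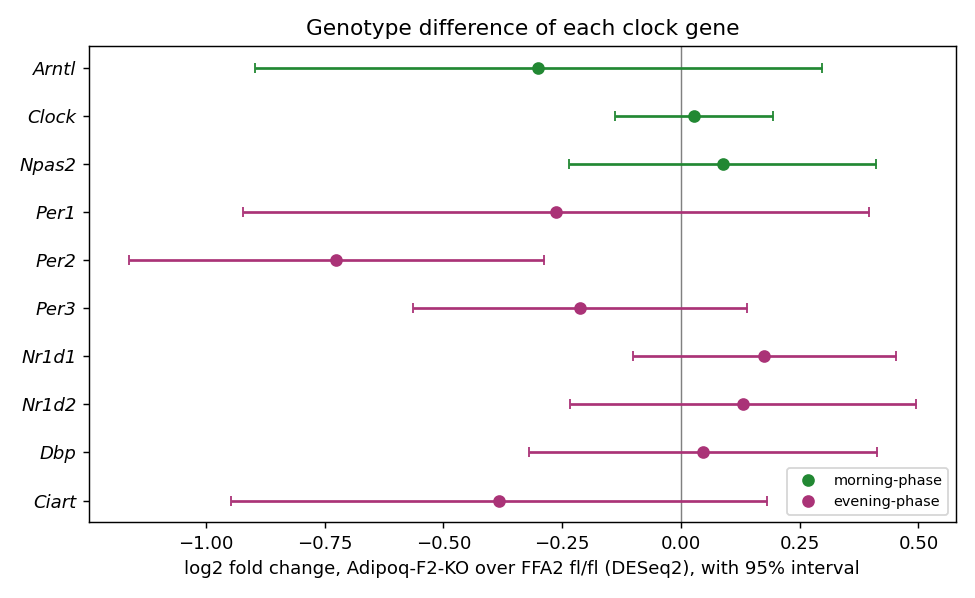
Log2 fold change of each clock gene (horizontal axis, Adipoq-F2-KO over FFA2 fl/fl, DESeq2, 4 libraries per genotype) with its 95% interval, colored by morning or evening phase. The interval of Per2 (-1.16 to -0.29) is the one that leaves out 0, and morning-phase and evening-phase genes both lie on either side of 0.

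The second question was whether morning-phase and evening-phase genes differed in direction between the genotypes. These names are those of the grouping, and the peak time of each gene was not measured here. Of the 3 morning-phase genes 2 were higher and 1 lower in Adipoq-F2-KO mice, with a median log2 fold change of 0.03. Of the 7 evening-phase genes 3 were higher (Nr1d1, Nr1d2 and Dbp) and 4 lower (Per1, Per2, Per3 and Ciart), with a median of -0.21. Over all 15986 tested genes the median was -0.01 and 51.5% were below 0. The evening-phase median was -0.04 without floxed control 1, -0.07 without Adipoq-F2-KO 3 and -0.31 in the deep libraries, and the morning-phase median turned to -0.03 without floxed control 2 and -0.01 without Adipoq-F2-KO 1. Of the 7 evening-phase directions, those of Per2, Per3, Nr1d1 and Ciart held in 18 of 18 alternatives, while Per1 and Nr1d2 held in 16 and 17 and Dbp in 11.

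The wider differences were among the controls. For each library the log2 value of each gene was centered on the mean of the 8 libraries and averaged over the genes of a phase. In floxed controls 1 and 2 the morning-phase mean was -0.17 and -0.34 and the evening-phase mean 0.38 and 0.19. In floxed controls 3 and 4 the morning-phase mean was 0.36 and 0.21 and the evening-phase mean -0.15 and -0.11. By these means the controls formed 2 pairs. Arntl and Npas2 were lower, and Per1, Per3, Dbp and Ciart higher, in both controls of the first pair than in either of the second, while Clock, Per2, Nr1d1 and Nr1d2 did not separate the pairs. The pairs were drawn from the means of these same genes, so this separation is partly built in. The share of all tested genes that separate the pairs was not counted. Mitochondrial genes took 6.48% and 6.93% of counts in controls 1 and 2 and 11.6% and 10.1% in controls 3 and 4, and the 10 most abundant genes took at most 12.0% against at least 14.6%. In Adipoq-F2-KO libraries the mitochondrial share was 7.81%, 4.37%, 12.2% and 12.1%. The part of these shares in the control pattern was not tested. In the 4 libraries of Adipoq-F2-KO mice the morning-phase mean was 0.08, -0.04, -0.04 and -0.06 and the evening-phase mean 0.03, -0.11, -0.08 and -0.15. All 4 Adipoq-F2-KO morning-phase means lay between the control pairs, with an SD of 0.0646 against 0.325 in controls, and the evening-phase SD was 0.0793 against 0.254. These spreads are given as a description, without a test.

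**Figure D4:**
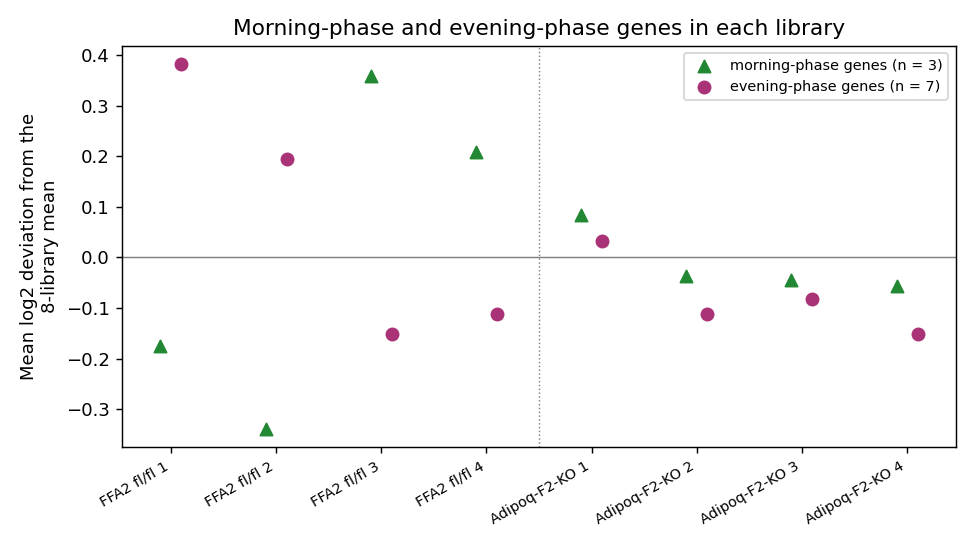
Mean log2 deviation from the 8-library mean (vertical axis) of the 3 morning-phase genes (triangles) and the 7 evening-phase genes (circles) in each library. FFA2 fl/fl libraries 1 and 2 have evening-phase above morning-phase means, libraries 3 and 4 the reverse, and the 4 Adipoq-F2-KO libraries have differences (morning minus evening) of 0.04 to 0.09.

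The ratio of Nr1d1 to Arntl, the repressor to its target, follows from the values above and is given on the per-kilobase scale as a description. Its spread among controls is mostly that of Arntl, since Nr1d1 did not separate the pairs. It was 46.4 and 41.4 in floxed controls 1 and 2, 18.1 and 19.0 in floxed controls 3 and 4, while the Adipoq-F2-KO libraries had 38.8, 43.4, 30.6 and 34.6. Adipoq-F2-KO libraries lay between the control pairs or within the upper one. The ratio of Per2 to Nr1d1 was 0.313, 0.408, 0.194 and 0.509 in controls, against 0.155, 0.147, 0.258 and 0.210 in Adipoq-F2-KO mice. Controls 1, 2 and 4 were above every Adipoq-F2-KO library in this ratio, and control 3 was among them. The ratio of Per2 to Per1 was 1.38, 2.13, 1.33 and 4.38 in controls, against 0.863, 1.13, 3.76 and 1.81 in Adipoq-F2-KO mice. That of Per2 to Per3 was 2.30, 3.58, 2.60 and 4.57 in controls, against 1.88, 2.28, 2.78 and 2.05. In both of these ratios Adipoq-F2-KO 3 lay above controls 1 and 3.

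Across the 8 libraries Arntl was compared with each of the other 9 genes by exact permutation of the pairings (40320 orders, two-sided). The strongest relation was with Ciart (Pearson's r = -0.68, exact permutation p = 0.0612, Benjamini-Hochberg adjusted p = 0.339 over 9 relations). Spearman's rho of that pair was -0.64 (exact permutation p = 0.0962, adjusted p = 0.345). Without the 2 libraries farthest from the median of Arntl, floxed controls 3 and 4, r with Ciart was -0.72, and in the 5 deep libraries it was -0.63. Arntl and Dbp had r = -0.60 and rho = -0.43 (exact permutation p = 0.12 and 0.299, adjusted p = 0.339 and 0.539), and r was -0.31 without those 2 libraries and -0.69 in the deep libraries. Per3 had r = -0.60 and rho = -0.62 with Arntl (exact permutation p = 0.116 and 0.115, adjusted p = 0.339 and 0.345), and kept r = -0.58 without them. Npas2, of the same phase as Arntl, had r = 0.55 (exact permutation p = 0.151, adjusted p = 0.339). None of the 9 relations passed after adjustment. Nr1d1 (r = -0.01) and Per2 (r = -0.06) had the values nearest 0, but without floxed controls 3 and 4 these were 0.54 and -0.59, and in the deep libraries -0.21 and 0.11. There r with Arntl was -0.79 for Per1 and -0.71 for Nr1d2, against -0.29 and -0.27 in all 8.

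Among the evening-phase genes themselves the relations were uneven. Ciart went with Per3 (r = 0.86), Dbp (0.74) and Per2 (0.66), while Per2 ran against Nr1d2 (-0.62) and Nr1d1 (-0.57) over the 8 libraries. These values are a description, since the genes share the depth and makeup of each library. The smooth muscle score had r = -0.71 with Per3 over the 8 libraries and -0.52 in the deep ones, and r = -0.43 with Clock over the 8 and -0.80 in the deep ones, so the order of the genes in this relation depended on the libraries.

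**Figure D5:**
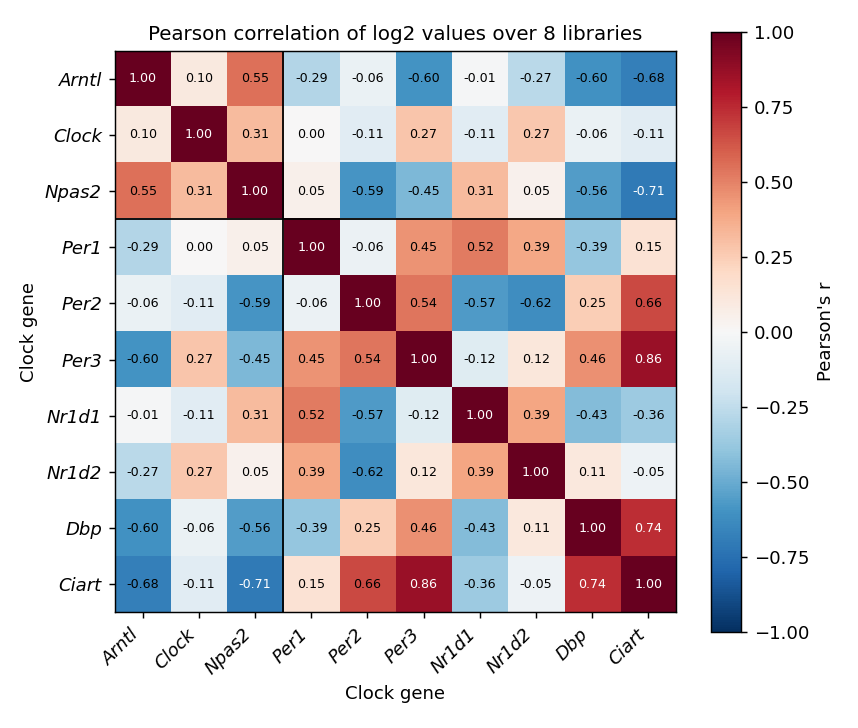
Pearson's r of log2 normalized counts over the 8 libraries for each pair of clock genes, with lines between the 3 morning-phase and the 7 evening-phase genes and color from -1 (blue) to 1 (red). Arntl is negative against Ciart (-0.68), Dbp (-0.60) and Per3 (-0.60), and Per2 is negative against both Nr1d1 (-0.57) and Nr1d2 (-0.62).

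By likeness over the 8 libraries, among tested genes with a mean of at least 50 normalized counts (10224 compared with each reference), the genes closest to Dbp were Tmem65 (r = 0.97), Stra6l, Depdc5, Fam19a3 and Adipor2 (r = 0.93). Ciart ranked 160 by likeness to Dbp, and Per3 ranked 1091. The genes closest to Arntl were Cd3e (r = 0.95), which encodes a T cell receptor subunit, Ipo7, Ralb, Sptan1 and Ppib (r = 0.94). None of these 10 genes is a clock gene. The nearest to Per2, looked up after its values were seen, was Col20a1 (r = 0.98), and the PAR bZIP factor Hlf ranked 27 (r = 0.93).

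Further clock and clock-output genes gave the setting of these values. Of 27 such genes 24 were tested, 9 were higher and 15 lower in Adipoq-F2-KO mice, and the median log2 fold change was -0.03. None passed after adjustment in DESeq2 with all 8 libraries and genotype as the one term. At an unadjusted p below 0.05 there was 1 higher and 3 lower, against 1.65% higher and 1.38% lower of all tested genes. The cryptochromes, which repress together with the PER proteins, had log2 fold changes of -0.01 (Cry1, SE 0.129) and -0.02 (Cry2, SE 0.136). Hlf, a relative of Dbp, had normalized counts of 425, 506, 278 and 509 in controls, against 238, 171, 424 and 222 in Adipoq-F2-KO mice. As in Per2, library 3 was the lowest control and the highest Adipoq-F2-KO value. The log2 fold change of Hlf was -0.72 (SE 0.283, DESeq2 adjusted p = 0.9998), -1.04 without Adipoq-F2-KO 3 (DESeq2 adjusted p = 0.0365) and -1.24 in the deep libraries (DESeq2 adjusted p = 2.29e-06, edgeR adjusted p = 0.347). Noct, which encodes the rhythmic phosphatase nocturnin, had a log2 fold change of -0.75 (SE 0.27, DESeq2 adjusted p = 0.9998). Bhlhe40, a repressor that competes at E-boxes, had -0.56 (SE 0.218, DESeq2 adjusted p = 0.9998), with -0.36 (DESeq2 unadjusted p = 0.0705) without floxed control 4, and the kinase gene Gsk3b had 0.15 (SE 0.065, DESeq2 adjusted p = 0.9998). Gsk3b was higher in all 4 Adipoq-F2-KO libraries (3231 to 3382) than in any control (2879 to 3096), as were 1.1% of all tested genes.

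Of the intestinal genes known to follow the clock all 11 were tested, 7 were higher and 4 lower, 0 had a DESeq2 unadjusted p below 0.05 (3.03% of all tested genes), and the median log2 fold change was 0.03. Among them the glucose transporter gene Slc2a2 had -0.24 (SE 0.171), the apolipoprotein gene Apoa4 0.22 (SE 0.164) and the nuclear receptor gene Nr0b2 -0.79 (SE 0.649). With 1 library left out, Slc2a2 ranged from -0.38 (without floxed control 3) to -0.15 (without floxed control 4), Apoa4 from 0.10 (without Adipoq-F2-KO 3) to 0.32 (without Adipoq-F2-KO 2) and Nr0b2 from -1.36 (without Adipoq-F2-KO 3) to -0.39 (without floxed control 4). Over all alternatives the lowest value was -0.42 for Slc2a2, -0.010 for Apoa4 and -1.83 for Nr0b2.

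Glucocorticoids and acute stimulation are known to reach Per1 and Per2, and both sets of responsive genes are given beside them. Of 8 glucocorticoid-responsive genes 2 were higher and 6 lower, 4 of the lower ones with an unadjusted p below 0.05 (1.38% of all tested genes, of which 51.5% lay below 0). The median log2 fold change was -0.69, and the 8 values ran from -2.50 to 0.44. These 4 were Zbtb16 (-1.10, SE 0.267, DESeq2 adjusted p = 0.0722), Sgk1 (-0.78), Fkbp5 (-1.17) and Mt2 (-2.50). Mt2 was highest in floxed control 2 (188 normalized counts, against 6.27 to 32.5 in the other controls) and was -0.63 without it, and Fkbp5 was -0.51 without floxed control 4 (1477 normalized counts). Zbtb16 was lower in all 4 Adipoq-F2-KO libraries (25.4 to 37.6 normalized counts) than in any control (52.3 to 67.2), as were 1.02% of all tested genes. Sgk1 was under every control in 3 of 4 Adipoq-F2-KO libraries, all but library 1, while the exception for Per2 was library 3. The share of all tested genes with 3 of 4 was not counted. Of 8 immediate early genes 1 was higher and 7 lower, with a median of -0.30, where 51.5% of all tested genes lay below 0. Among the 7, 1 had an unadjusted p below 0.05 (Fosb, -0.96, SE 0.409), as did 1.38% of all tested genes in that direction. None of the 16 passed after adjustment in DESeq2 over the 15986 tested genes. Zbtb16 passed with at least 10 counts in all 8 libraries (DESeq2 adjusted p = 0.0424), without floxed control 3 (0.0199, edgeR 0.248) and in the deep libraries (0.0191, edgeR 0.512). Over its other alternatives the adjusted p of Zbtb16 ran from 0.0601 (DESeq2 with TMM factors) to 0.9994 (edgeR with all 8 libraries), and with limma-voom it was 0.519. Sgk1 passed without Adipoq-F2-KO 1 (-1.14, DESeq2 adjusted p = 0.00347) and in none of its other alternatives, with -0.46 in the deep libraries (DESeq2 adjusted p = 0.99955). The part of both sets in the Per2 values was not tested.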

How the data were processed

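The deposited values were raw read counts per Ensembl gene for 8 jejunal libraries, made by the authors with Trimmomatic, STAR and featureCounts (versions, annotation release and strand setting not given in the sources used here) from stranded poly-A libraries. The submitters' processing notes name GRCm38 and mm10, but 2147 of the 56980 identifiers begin with ENSMUSG00002 and 0 of those are in GENCODE M21, so genes are placed by chromosome only, and the promoter coordinates are those of the RefSeq table (GRCm38.p6). Symbols and exonic lengths came from GENCODE M21 (52073 identifiers matched), and sequences from RefSeq.

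Genotypes and replicate numbers were read from the labels. DESeq2 1.42.0 (R 4.3.3) tested 15986 genes that reached 10 counts in 4 libraries or more, with genotype as the only term, two-sided Wald tests and Benjamini-Hochberg adjustment over all of them. DESeq2 gave no adjusted p for 8 genes. edgeR 4.0.16, limma 3.58.1, other filters and left-out libraries were alternatives, and the scripts were tested on simulated data. Correlations used log2(normalized count + 1). The study's text gives 4 per group for the jejunal sequencing and counts its animal groups in mice, so each sample was taken as 1 mouse, although the labels name no animal. Intervals and model errors rest on the spread among these 8 libraries, each taken as 1 mouse. Reads carried no molecular identifiers. No pair of libraries within a genotype was a duplicate (chi-square of 5.04 to 56.6 per gene).

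The 10 genes, the lists and the comparisons were chosen with earlier results of these data known. All 10 clock genes are named; of each further list, at most 4 were named by their unadjusted p, with Cry1 and Cry2 in any case, and the 5 genes most like Dbp and Arntl.

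The intestinal list was fixed with 1 further gene, which is not reported here and is in none of its counts.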

Additional observations from a re-analysis of the deposited data

Results flagged for a closer look

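Within a genotype, 2 of the 20 groups of 4 libraries held a value far from the other 3 by Dixon's test, which chance gives in about 1 of 20 groups. In Npas2, Adipoq-F2-KO library 3 was the lowest at 484.5 normalized counts, against 594.1 to 607 in the other 3 (ratio 0.895). In Per2, Adipoq-F2-KO library 3 was the highest at 1253, against 881.7 to 922.8 (ratio 0.889). Both values came from the same shallow library.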

How the results depend on the processing

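Among all 15986 genes the 6 calls became 2 with edgeR, 1 with limma-voom, 3 with no filter on low counts, 78 in the deep libraries, and 2 to 103 when 1 library was left out (103 without floxed control 3, 23 without floxed control 2, 2 without floxed control 1, and 3 without floxed control 4 or without Adipoq-F2-KO 4). In 2 alternatives chosen after seeing the data, edgeR gave 2 calls without floxed control 3 and 0 in the deep libraries (991 genes at an unadjusted p below 0.05). The clock genes had 0 calls in DESeq2, 1 (Per2) in the deep libraries, and 0 to 1 when 1 library was left out, the 1 being Per2 without floxed control 3. The 2 genotypes share sample numbers, but same-numbered libraries did not all deviate together (correlations of 0.542, 0.294, 0.0113 and -0.423), so they share only a number. With the replicate block there were 11 calls, 0 of the 10 clock genes and Noct among them (-0.79, DESeq2 adjusted p = 1.0e-04).

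Directions turned in the following log2 fold changes. With 1 library left out Dbp ranged from -0.075 (without Adipoq-F2-KO 3) to 0.16, Npas2 from -0.034 (without floxed control 2) to 0.18, Nr1d2 from -0.021 (without floxed control 4) to 0.22, Clock from -0.00998 (without Adipoq-F2-KO 1) to 0.0705, Cry1 from -0.049 to 0.019 and Cry2 from -0.086 to 0.032. Dbp was -0.015 with limma-voom, -0.31 in the deep libraries (-0.30 with edgeR) and -0.043 with edgeR without floxed control 3. In the deep libraries Arntl was 0.011 (0.024 with edgeR), Per1 0.16 (0.17) and Apoa4 -0.010 (-0.0015), and Cry2 was 0.0025 with edgeR. Cry1 was 0.0099 with the smooth muscle covariate. The correlation of Arntl with Per2 was 0.11 in the deep libraries and 0.069 after regression on the smooth muscle score. That with Nr1d1 was 0.54 without the 2 farthest libraries and 0.091 with values centered on the genotype mean, and that with Nr1d2 was 0.048 without those 2 libraries. The causes were not tested. Of the 10 clock genes, counting depth limits Ciart most, at 523 counts over 8 libraries.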
